A study of Mus musculus with 2 samples.

Results

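The cells described here are Idoxuridine-treated mouse embryonic stem cells, set apart by how much of their RNA came from 6 epithelial genes. In the Idoxuridine library, each cell above a minimum depth, counted in unique molecular identifiers (UMIs, each 1 RNA molecule), received a score, the percent of its UMIs in Krt8, Krt18, Krt19, Cldn4, Epcam and Lgals3. Of 742 cells in the library, 648 had that depth and 94 were left out. The shallowest cell kept had 23504 UMIs and the deepest cell left out had 23473. The cells were ranked by score and cut into 4 groups of equal size, of which the top one gave 162 high-score cells and the bottom one 162 low-score cells. Both libraries of the series together hold 1553 cells. The 6 score genes therefore differ between the sides by construction, and their values are a description. The other genes were read from the same cells and from 1 library, so their differences are descriptions too, with no test and no p-value.

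Both libraries are from E14, a male mouse embryonic stem cell line labelled C57BL/6 by strain, grown without feeder cells on gelatin in 2i medium, in which 2 kinase inhibitors hold the cells in the naive state. One library was treated for 24 h with Idoxuridine, a thymidine analogue carrying iodine, which cells incorporate when they copy DNA, and the other for 24 h with DMSO, the solvent. The treatment label gives 10 µM Idoxuridine, while a protocol field gives the same figure in mM. There was 1 library per treatment, so treatment and library cannot be told apart. The 2 libraries shared 2 cell barcodes.

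Simple epithelia are single sheets of polarised cells. Keratins 8, 18 and 19 form their intermediate filaments, claudins seal the tight junctions between neighbours, and Epcam is a surface adhesion protein. Lgals3 encodes galectin-3, a lectin that binds sugars on surface proteins. Naive embryonic stem cells themselves grow as compact colonies joined by E-cadherin and carry Epcam, so a low level of epithelial RNA is ordinary in them. The first true epithelium of the embryo is the trophectoderm, which forms the placenta and is marked by Cdx2, Gata2 and keratins.

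Promoter sequences of 5 genes are shown because these are the claudins, the trafficking gene and the transcription factor to which the results below return. Each runs from 250 bases before to 50 bases after the RefSeq start site on GRCm38.p6, 5′ to 3′ on the gene's strand, with motif matches in capitals. The motifs searched on both strands were AP-1 TGANTCA, GRHL (grainyhead-like) AACCNGTT, TEAD GGAATG and KLF or SP GGGCGG, and none overlapped another in these sequences. Cldn4 lies at chr5:134946885-134947184 on the minus strand, Cldn3 at chr5:134985964-134986263 on the plus strand, Cldn7 at chr11:69964529-69964828 on the plus strand, Elf3 at chr1:135258423-135258722 on the minus strand and Rab25 at chr3:88548230-88548529 on the minus strand.
Cldn4: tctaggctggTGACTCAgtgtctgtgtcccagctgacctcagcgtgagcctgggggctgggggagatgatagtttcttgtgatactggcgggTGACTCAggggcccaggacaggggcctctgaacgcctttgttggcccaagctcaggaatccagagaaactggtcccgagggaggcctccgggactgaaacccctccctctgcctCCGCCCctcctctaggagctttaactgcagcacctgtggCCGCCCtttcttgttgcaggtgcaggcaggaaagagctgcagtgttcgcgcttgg
Cldn3: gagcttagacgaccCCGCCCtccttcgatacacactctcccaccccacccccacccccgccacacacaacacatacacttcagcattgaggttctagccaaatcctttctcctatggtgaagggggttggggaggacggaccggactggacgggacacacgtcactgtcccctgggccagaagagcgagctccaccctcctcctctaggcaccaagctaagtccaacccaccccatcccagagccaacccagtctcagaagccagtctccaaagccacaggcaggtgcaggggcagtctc
Cldn7: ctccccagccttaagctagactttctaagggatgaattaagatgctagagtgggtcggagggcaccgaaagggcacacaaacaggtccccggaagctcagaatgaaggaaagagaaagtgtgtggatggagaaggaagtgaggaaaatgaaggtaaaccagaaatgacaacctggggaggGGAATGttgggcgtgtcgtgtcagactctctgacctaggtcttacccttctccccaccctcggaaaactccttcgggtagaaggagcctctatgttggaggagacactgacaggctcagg
Elf3: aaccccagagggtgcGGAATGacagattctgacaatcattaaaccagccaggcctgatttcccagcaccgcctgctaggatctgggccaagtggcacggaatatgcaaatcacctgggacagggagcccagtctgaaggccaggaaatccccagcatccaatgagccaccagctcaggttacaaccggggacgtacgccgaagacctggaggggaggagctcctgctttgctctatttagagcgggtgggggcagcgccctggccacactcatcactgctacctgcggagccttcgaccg
Rab25: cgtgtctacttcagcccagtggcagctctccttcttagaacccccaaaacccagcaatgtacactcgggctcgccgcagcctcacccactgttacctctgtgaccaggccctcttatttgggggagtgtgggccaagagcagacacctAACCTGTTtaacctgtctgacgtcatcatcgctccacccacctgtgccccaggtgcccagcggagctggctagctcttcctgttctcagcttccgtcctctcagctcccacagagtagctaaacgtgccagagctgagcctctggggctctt
The Cldn4 window held 2 AP-1 matches, which begin 240 and 158 bases before the start site, and 2 KLF or SP matches. The windows of Cldn7 and Elf3 each held 1 TEAD match, that of Rab25 held 1 GRHL match, and that of Cldn3 held 1 KLF or SP match. A second RefSeq start site of Cldn7 had a window with 1 KLF or SP match, not shown. Krt8, Krt18 and Ovol2 held none of the 4 motifs in this window. These matches are letters, not measured binding.

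The score formed 1 continuous range with no gap at either limit. It ran from 0.00341% to 0.210% of a cell's UMIs over the 648 cells, with a median of 0.0529%. The side medians were 0.0923% in high-score and 0.0261% in low-score cells. At the upper limit, the last cell inside had 0.0725% and the first cell outside 0.0724%, and at the lower limit the last cell inside had 0.0356% and the first outside 0.0358%. Within 10% of the upper limit lay 97 cells, of which 39 were inside, and within 10% of the lower limit lay 76 cells, of which 33 were inside. The sides are the ends of this range, and whether it holds more than 1 cell type was not tested.

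**Figure D1:**
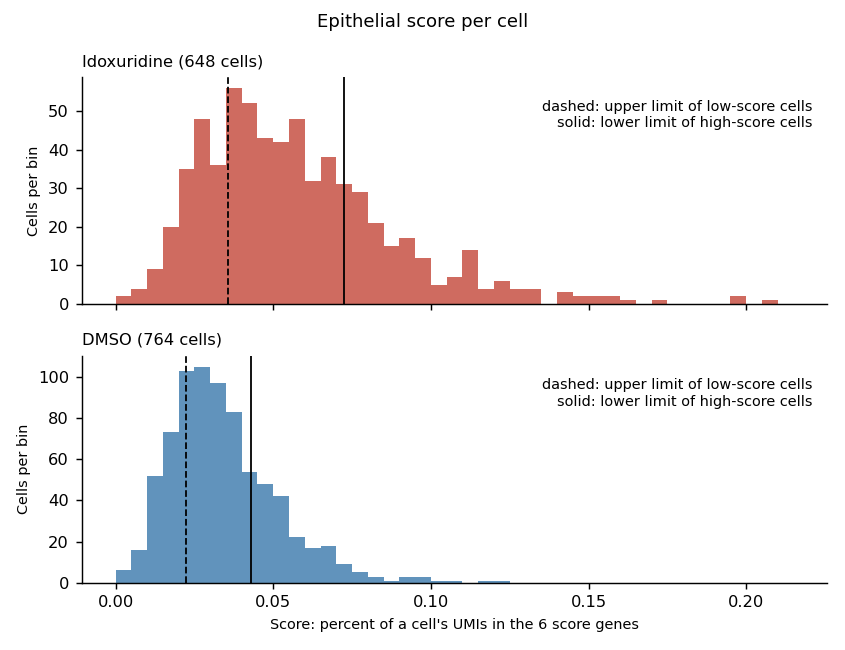
Score per cell (percent of UMIs in the 6 score genes, x axis) against the number of cells per bin (y axis) in the Idoxuridine library (upper panel, 648 cells) and the DMSO library (lower panel, 764 cells), with the limits of each library's own low-score and high-score cells as lines. Both distributions have a single hump with a tail to the right, and the DMSO cells sit lower, with a median of 0.0314% against 0.0529%.

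The same score was lower in the DMSO library. Among 764 DMSO cells of the same depth, 23 (3.01%, exact Clopper-Pearson 95% interval 1.92 to 4.48) were at or above the upper Idoxuridine limit and 468 (61.3%, 57.7 to 64.7) were at or below the lower one. These intervals, and those given below with levels and log2 ratios, are at the 95% level. They cover counting error only and not the spread between cultures.

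Epcam supplied the largest part of the score. In the Idoxuridine library it gave 47.0% of all score UMIs, Krt8 gave 22.8%, Cldn4 16.8%, Krt19 5.69%, Lgals3 5.39% and Krt18 2.35%. In DMSO cells Cldn4 was the leading part with 34.3%, and Epcam gave 24.1%. Levels below are counts per 10⁶ UMIs (CPM), the summed UMIs of a gene over all cells of a side. Over the 4 score groups of Idoxuridine cells, from lowest to highest, Epcam stood at 107, 209, 309 and 445 CPM and Krt8 at 54.8, 87.0, 137 and 242 CPM. Krt19 stood at 7.66, 20.2, 36.0 and 66.4 CPM and Cldn4 at 60.6, 86.6, 104 and 132 CPM. Epcam, Krt8, Krt19 and Cldn4 climbed at each step. Krt18, the filament partner of Krt8, stood at 6.94, 8.95, 10.8 and 27.2 CPM, and Lgals3 at 18.4, 21.2, 25.1 and 59.1 CPM. The summed level of both was therefore much higher in the top group than in the group below it. Of top-group cells, 42.6% had a Krt18 UMI and 64.2% an Lgals3 UMI. Scaled to the minimum depth, the top-group median was 0 for Krt18 and 0.65 for Lgals3, and the highest cells had 11.5 and 19.9.

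**Figure D2:**
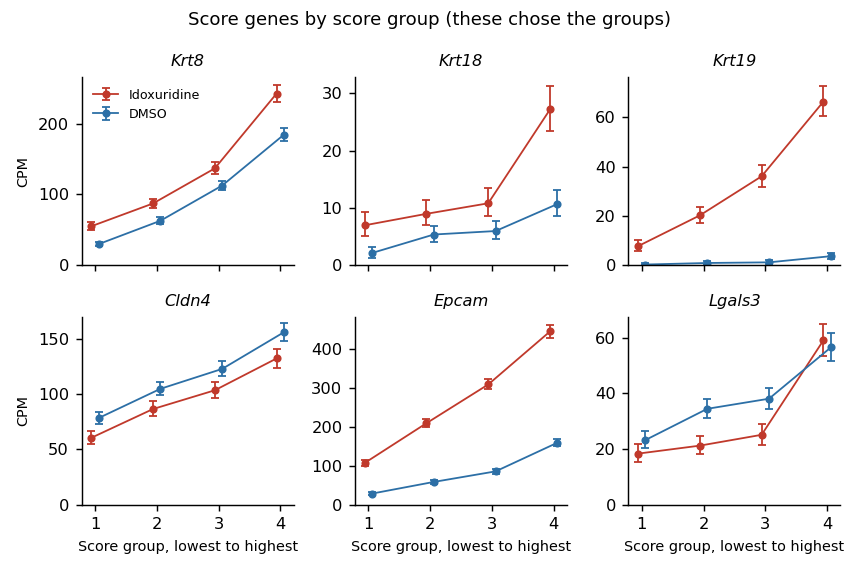
Level of each score gene in CPM (y axis, from 0) over the 4 score groups (x axis) in Idoxuridine and DMSO cells, with exact Poisson 95% intervals as bars. These genes chose the groups, so the climb with score is by construction, while the scale differs: Epcam reached 445 CPM in Idoxuridine and 159 CPM in DMSO cells, and Krt19 66.4 and 3.59 CPM.

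The 6 genes moved together only loosely from cell to cell. Over the 648 cells, with UMIs scaled to equal depth, Pearson's r between pairs of score genes ran from −0.09 for Epcam and Lgals3 to 0.33 for Krt8 and Krt18. Epcam had an r of 0.06 with Krt8. These coefficients are over cells of 1 library that share a culture and a sequencing run, and the counts per cell are sparse. The score was therefore also built from 5 genes at a time and the gene left out was read in the new groups, so that no gene was read in cells it had chosen. Every left-out gene was higher in the cells chosen by the other 5. The log2 ratio of high-score to low-score cells was 1.02 (0.88 to 1.16) for Krt8, 1.54 (1.10 to 2.01) for Krt18, 1.56 (1.24 to 1.90) for Krt19 and 1.00 (0.72 to 1.29) for Lgals3. It was smaller for Epcam, at 0.31 (0.21 to 0.40), and for Cldn4, at 0.23 (0.08 to 0.39). In DMSO cells the same ratios were 0.75 (0.61 to 0.89) for Krt8, 1.70 (1.09 to 2.33) for Krt18 and 1.79 (0.66 to 3.06) for Krt19. They were 0.15 (0.02 to 0.27) for Cldn4, 0.70 (0.55 to 0.85) for Epcam and 0.51 (0.30 to 0.73) for Lgals3. The Krt19 ratio there rested on 28 UMIs in high-score and 9 in low-score cells.

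The sides were alike in depth. High-score cells held 6991868 UMIs in all with a median of 38989 per cell, and low-score cells 6918631 with a median of 38644.5. With cells thinned to that minimum depth, the median number of genes per cell was 5384 in high-score and 5362 in low-score cells. The mitochondrially encoded share had medians of 2.71% and 2.92% and ribosomal protein genes 13.4% and 13.97%. Genes of the G2/M list took 1.26% of UMIs in high-score and 1.10% in low-score cells.

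Outside the score genes, 8899 genes had at least 100 UMIs over both sides and are called measured. A gene is called higher or lower where its CPM differed by at least 0.5 log2 and the Poisson intervals of the sides did not overlap. By this rule 202 genes (2.27% of those measured) were higher in high-score cells and 62 (0.697%) were lower, 264 (2.97%) in all. Most genes were near equal: 78.4% lay within 0.25 log2 of no difference, and the median of all was 0.02. When cells were ranked within each of 3 groups by G2/M share, 163 of the 202 higher and 45 of the 62 lower genes still passed, within 4 groups by depth 184 and 44 did, and without cells over 5% mitochondrial UMIs 178 and 57 did. Past 1 log2 lay 34 of the higher and 1 of the lower genes. Over the 4 score groups, 119 of the 202 higher genes (58.9%) and 39 of the 62 lower genes (62.9%) were in strict order from the lowest to the highest score. The rule already set the lowest and highest groups of these genes apart, so such an order is partly built in. No share over all measured genes is given beside it.

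Some tight-junction and polarity genes that the score did not use were higher in high-score cells. Of 23 measured genes in a list of other keratins and simple-epithelium genes, 6 were higher and none lower, against 2.27% of all measured genes, and the list's median was 0.32 log2. Cldn3, a tight-junction claudin whose gene lies beside that of Cldn4 (chr5:134986214-134987472), was at 29.0 CPM (25.2 to 33.3) in high-score and at 10.7 CPM (8.40 to 13.4) in low-score cells, with a log2 difference of 1.44 (1.05 to 1.84). Cldn7, another claudin, was at 36.9 CPM (32.5 to 41.7) in high-score and at 16.5 CPM (13.6 to 19.8) in low-score cells, with a log2 difference of 1.16. The middle groups of both lay between, at 16.7 and 28.3 CPM for Cldn3 and 23.0 and 33.3 CPM for Cldn7. Rab25, a small GTPase of apical vesicle recycling, was higher by 0.77 log2, the membrane protease gene Prss8 by 0.70, the apical polarity gene Crb3 by 0.60 and the embryonic claudin Cldn6 by 0.54. Cdh1, which encodes E-cadherin, was neither, with 126 CPM in high-score and 121 CPM in low-score cells.

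Several other keratin and claudin genes of the list were absent or nearly so. Krt5, Cldn1 and Cldn23 had no UMI on either side. Krt14, a keratin of stratified epithelium, stood at 1.00 CPM in high-score cells and had no UMI in low-score cells, and Krt7, a simple-epithelium keratin, at 4.43 and 1.88 CPM, below the minimum count. Summed per cell and scaled to the minimum depth, the whole list had a median of 34.2 UMIs in high-score cells, with single cells from 20.5 to 60.6. In low-score cells the median was 28.2 UMIs, with single cells from 14.8 to 51.0. The ranges overlapped widely, and 85.8% of high-score cells were above the low-score median.

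**Figure D3:**
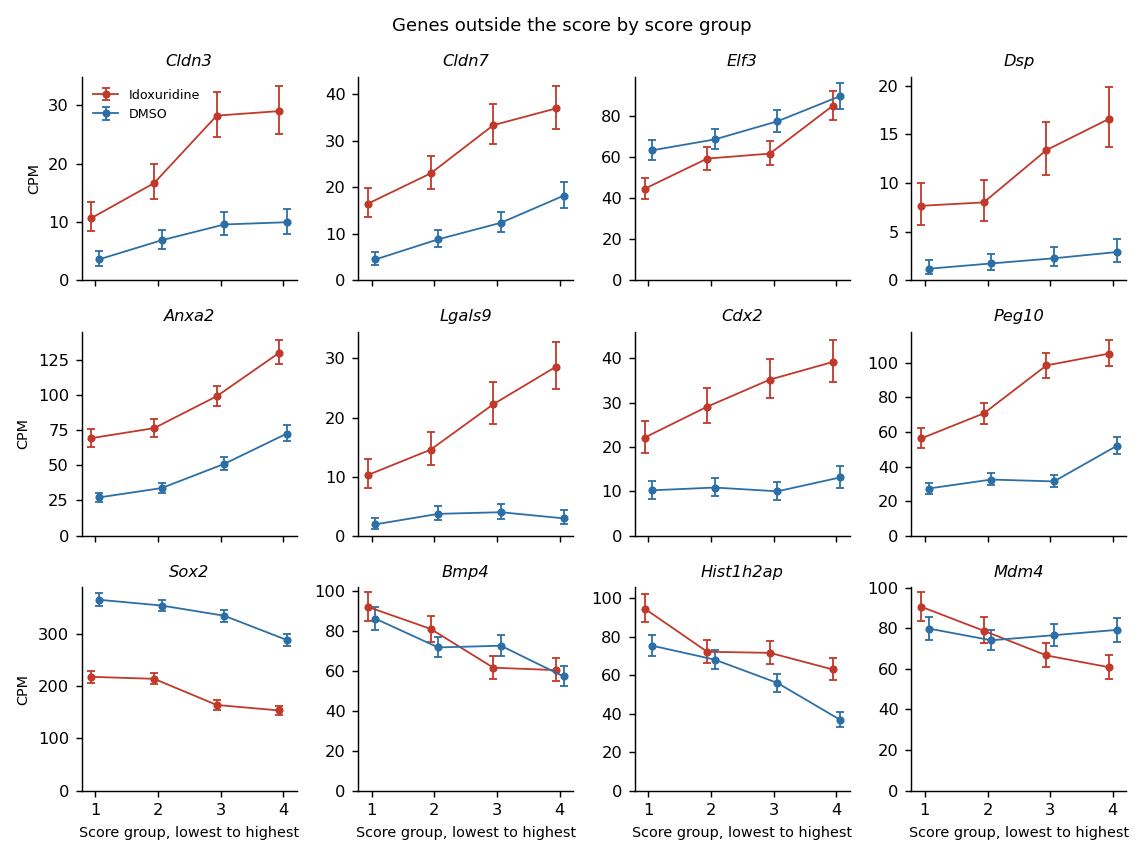
Level in CPM (y axis, from 0) of 12 genes outside the score over the 4 score groups (x axis) in Idoxuridine and DMSO cells, with exact Poisson 95% intervals as bars. Cldn3, Cldn7, Elf3, Dsp, Anxa2, Lgals9, Cdx2 and Peg10 climb over the Idoxuridine groups and Sox2, Bmp4, Hist1h2ap and Mdm4 decline, while Mdm4 is flat in DMSO cells at 79.9 CPM in the lowest and 79.2 CPM in the highest group.

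Of 11 measured desmosome and adherens junction genes, 2 were higher and none lower, against 2.27% and 0.697% of all measured genes. The median was 0.15 log2, and 9 of the 11 were above 0, as were 9 of 9 in DMSO cells. There 1 was higher, against 2.49% of all measured genes. Of the 8519 genes measured in both libraries, 54.8% were above 0 in Idoxuridine and 57.0% in DMSO cells. Dsp, which encodes the desmosome plaque protein desmoplakin, was at 16.6 CPM (13.7 to 19.9) in high-score and at 7.66 CPM (5.74 to 10.0) in low-score cells, with a log2 difference of 1.11. Pkp2, which encodes a plakophilin of the same plaque, was higher by 0.55 log2. The catenin genes Ctnnb1, Ctnna1 and Jup were neither, at 0.14, 0.16 and −0.07 log2.

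Among epithelial transcription factors, 2 of 6 measured were higher and none lower, against 2.27% and 0.697% of all measured genes. Elf3, an ETS factor of epithelial differentiation, was at 85.1 CPM (78.4 to 92.2) in high-score and at 44.7 CPM (39.8 to 49.9) in low-score cells, with a log2 difference of 0.93. Ovol2, a zinc finger repressor of mesenchymal genes, stood at 48.2 and 29.8 CPM, a log2 ratio of 0.69. Klf5, Tfap2c and Grhl3 were neither, at 0.02, 0.06 and −0.15 log2. Grhl2 and Ehf, regulators of mature epithelium, were nearly absent: Grhl2 stood at 1.57 and 1.59 CPM and Ehf at 0.143 and 0.145 CPM. None of the 7 measured mesenchymal and fibroblast genes was higher or lower, against the same 2.27% and 0.697%. At those shares a list of 7 would seldom hold a gene past the rule, so this count does not set the list apart. Vim, the mesenchymal intermediate filament, stood at 390 and 398 CPM.

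Promoters could be matched for 148 of the 202 higher and 47 of the 62 lower genes. An AP-1 match was present in 10.2% of the promoters of higher genes, 8.20% of those of lower genes, 4.54% of those of measured genes and 7.81% of all RefSeq promoters of this length. For GRHL these shares were 1.07%, 0%, 1.74% and 2.09%. For TEAD they were 14.4%, 23.0%, 11.5% and 14.7%, and for KLF or SP 67.4%, 54.1%, 65.7% and 35.7%.

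Galectins, annexins and S100 genes held the largest share of higher genes among lists with at least 10 measured genes. Of 18 measured, 9 were higher and 1 lower, against 2.27% and 0.697% of all measured genes, with a median of 0.54 log2. In DMSO cells 3 of 13 measured were higher and none lower, against 2.49% and 0.269% of all measured genes there, with a median of 0.30 log2. Among the galectins, Lgals9 was at 28.6 CPM (24.8 to 32.9) in high-score and at 10.3 CPM (8.01 to 12.9) in low-score cells, with a log2 difference of 1.48. Lgals7 stood at 57.6 and 30.6 CPM (0.91 log2) and Lgals1 at 142 and 91.5 CPM (0.64 log2). Anxa2, a calcium-dependent membrane-binding protein, was at 130 CPM (122 to 139) in high-score and at 69.4 CPM (63.3 to 75.9) in low-score cells, with a log2 difference of 0.91. Anxa3 was higher by 0.51 log2. Among the S100 calcium-binding proteins, S100a14 was higher by 1.14 log2, S100a16 by 1.07, S100a6 by 0.65 and S100a11 by 0.61. Anxa1 went the other way, with 4.29 CPM (2.89 to 6.13) in high-score and 10.98 CPM (8.65 to 13.7) in low-score cells, and was the 1 gene lower by more than 1 log2. Its 30 UMIs in high-score cells came from 23 cells.

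Some trophectoderm genes were higher as well. Of 9 measured, 4 were higher and none lower, against 2.27% and 0.697% of all measured genes, with a median of 0.39 log2. In DMSO cells 3 of 6 measured were higher and none lower, against 2.49% and 0.269% of all measured genes there. The DMSO median was 0.65 log2 and all 6 were above 0, against 57.0% of the genes measured in both libraries. Cdx2, a homeodomain factor that specifies trophectoderm, was at 39.2 CPM (34.7 to 44.1) in high-score and at 22.1 CPM (18.7 to 25.9) in low-score cells, with a log2 difference of 0.83. Gata2, a GATA factor of trophoblast, stood at 29.3 and 15.6 CPM (0.91 log2), and Esx1, a placental homeobox gene on the X chromosome, at 25.5 and 13.2 CPM (0.95 log2). Peg10, an imprinted gene needed for the placenta, stood at 105 and 56.2 CPM (0.91 log2). Other defining trophoblast genes were nearly absent, with Gata3 at 1.43 and 0.867 CPM and Elf5 at 0.858 and 0.578 CPM, and Tead4 was neither, at −0.16 log2. Scaled to the minimum depth, the summed list had a median of 7.62 UMIs per cell in high-score cells, with single cells from 0 to 60.8. In low-score cells the median was 4.95, with single cells from 0.590 to 22.9.

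Of 22 measured imprinted genes 5 were higher and none lower, against 2.27% and 0.697% of all measured genes, with a median of 0.24 log2. Besides Peg10 these were the growth inhibitor Cdkn1c at 1.14 log2, Peg3 at 0.60, Sgce, the neighbour of Peg10, at 0.60, and Phlda2, which limits placental growth, at 0.57. Of 9 measured germline genes silenced by promoter methylation, 3 were higher and 1 lower, against 2.27% and 0.697% of all measured genes. With Krt8, Krt18 or Krt19 left out of the score, 1 of the list was higher in each case. Sycp3, a meiotic chromosome axis gene, was higher by 0.56 log2, Dazl, an RNA-binding protein of germ cells, by 0.52, and Tex101 by 0.96, while Tuba3a was lower by 0.78 log2 and stood at 20.6 and 35.3 CPM. T (Brachyury), a regulator of the primitive streak, stood at 22.3 and 10.4 CPM, a log2 ratio of 1.10. It was the only 1 of 3 measured mesendoderm genes above 0, against 54.8% of the genes measured in both libraries. The median of the 3 was −0.29 log2.

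Most measured pluripotency genes were neither higher nor lower, as were most genes, since 2.97% of all measured genes passed the rule. Of 15 measured general pluripotency genes, 14 were neither. Pou5f1 (Oct4) had a log2 ratio of −0.01 and Nanog one of 0.03. Sox2, the partner of Oct4, was at 153 CPM (144 to 163) in high-score and at 218 CPM (207 to 229) in low-score cells, with a log2 difference of −0.51 (−0.62 to −0.39). Its middle groups stood at 214 and 164 CPM. Of 22 measured naive genes, Dppa3, a maternal factor that limits DNA methylation upkeep, was higher, at 123 and 75.7 CPM (0.70 log2), and Sox2, which is on both lists, was the lower one. The median of the naive list was −0.11 log2, with 9 of the 22 above 0, against 54.8% of the genes measured in both libraries. That of the general list was −0.02. Over all measured genes the median was 0.02.

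The lower genes were otherwise a mixed set. Bmp4, a growth factor that acts against neural fate, was at 60.5 CPM (54.9 to 66.5) in high-score and at 92.2 CPM (85.2 to 99.7) in low-score cells, with a log2 difference of −0.61. The replication-dependent histone genes Hist1h2ap and Hist1h1a were lower by 0.59 and 0.84 log2. Mdm4, an inhibitor of p53, stood at 60.8 and 90.6 CPM (−0.58 log2), and Ada, which encodes adenosine deaminase, at 18.7 and 34.0 CPM (−0.86). Pvrl4, a nectin of cell contacts, stood at 8.30 and 16.5 CPM (−0.99). Of 41 measured p53 targets, 1 was higher (Plk3, 0.66 log2) and 1 lower (Cd80, −0.80 log2), with a median of −0.13. These counts stand against 2.27% and 0.697% of all measured genes.

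Of 14 measured immediate early genes, 3 were higher and none lower, against 2.27% and 0.697% of all measured genes. The median was 0.32 log2 and 11 of the 14 were above 0, against 54.8% of the genes measured in both libraries. In DMSO cells 9 of 10 were above 0 and 4 were higher, against 57.0% and 2.49% of genes there. Myc, a growth transcription factor, stood at 11.9 and 4.63 CPM (1.36 log2), Zfp36, which promotes mRNA decay, was higher by 0.80 and Jun, an AP-1 subunit, by 0.70. Of 13 measured YAP and TEAD targets, 2 were higher and 1 lower, against the same 2.27% and 0.697%, with a median of −0.08 log2. Ctgf, a matricellular gene of this list, stood at 59.6 and 33.8 CPM (0.82 log2). Amotl2 was the lower one, by 0.50 log2. In the Nodal and TGF-beta list 3 of 17 were higher and 1 lower, again against 2.27% and 0.697%. The list's median was 0.15 log2, and Bambi, a decoy receptor, was higher by 0.62 log2. Of 56 measured G2/M genes none passed the rule, against 2.97% of all measured genes. Above 0 were 45 of the 56, against 54.8% of the genes measured in both libraries, and the list's median was 0.19 log2. With Epcam left out of the score the G2/M median was −0.01 and none passed. Without Cldn4 it was 0.29 with 11 higher and 1 lower, without Krt8 0.28 with 5 higher, and without Lgals3 0.23 with 3 higher. None of the 41 measured S phase genes, 31 actin cytoskeleton genes, 25 glycolysis and hypoxia genes, 23 cholesterol genes, 22 lysosome genes, 25 apoptosis genes, 19 unfolded protein genes or 14 housekeeping genes passed the rule. Of all measured genes 2.97% passed it. At that share lists of these sizes would hold few such genes or none, so these counts do not set the lists apart.

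**Figure D4:**
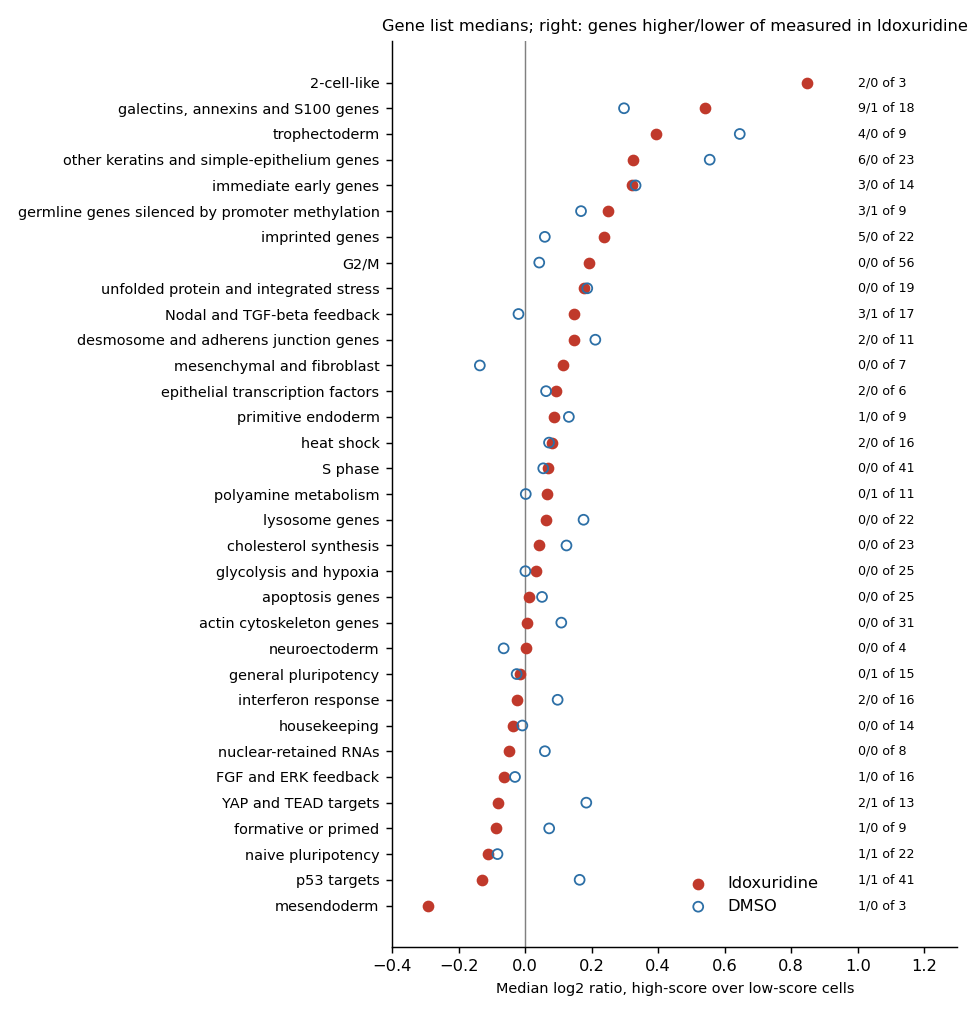
Median log2 ratio of high-score over low-score cells (x axis) for each gene list (y axis) in Idoxuridine (filled) and DMSO cells (open), with the number of genes higher and lower of those measured in Idoxuridine cells at the right. Lists of 2-cell-like, galectin, trophectoderm and simple-epithelium genes lie farthest to the right in Idoxuridine cells, and the 2-cell-like median rests on 3 measured genes.

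By ratio, the 12 highest genes were Khdc1c (3.78), Fbp2 (1.90), Khdc1a (1.81), Mogat2 (1.65), Tspan1 (1.49), Lgals9, Cyp1a1 (1.45), Cldn3, Gal3st3 (1.43), Mt4 (1.41), Serpinb6c (1.38) and Myc. Khdc1a and Khdc1c are neighbouring paralogs on chromosome 1 whose reads may be split between them, so their separate values are uncertain. Khdc1c had 111 UMIs from 29 high-score cells and 8 UMIs from 7 low-score cells. Fbp2 had 79 UMIs in high-score and 21 in low-score cells, Mogat2 92 and 29, Myc 83 and 32 and Gal3st3 95 and 35. Counts were larger for Cldn3 (203 and 74), Lgals9 (200 and 71) and Cyp1a1 (301 and 109). Near the minimum count only large ratios give separate intervals, so the order by ratio is not an order of certainty. Fbp2 encodes a fructose bisphosphatase and Mogat2 an acyltransferase of fat synthesis. Cyp1a1, a detoxifying oxidase, stood at 43.0 and 15.8 CPM, with 15.9% of the high-score UMIs in 1 cell. By difference in level among genes past the rule, the largest gains were in Car2, a carbonic anhydrase gene, with 302 CPM (289 to 315) against 189 CPM (179 to 199), and in Bhmt, a methyl transfer enzyme gene, with 158 against 91.6 CPM. Tex19.1, a suppressor of transposons in germ cells, followed with 165 against 103 CPM, then Anxa2, and then Nefl, a neurofilament gene, with 152 against 101 CPM.

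For 8 genes past the rule, 1 cell supplied over 20% of the UMIs of a side. These were Gm5662, Igfbp3, Khdc1c, Lefty2, Mt4, Pramel6, Ptcra and Tex101, and all 8 were higher. With the top cell of each side left out, a comparison added after seeing the data, their log2 ratios ran from 0.69 for Pramel6 to 3.91 for Khdc1c. For Igfbp3 the ratio went from 1.22 to 0.89 (0.21 to 1.59). Of the 8 genes, 6 (all but Lefty2 and Mt4) then had fewer than 100 UMIs, and the Poisson intervals of Igfbp3, Pramel6 and Ptcra overlapped. Krt8, Anxa1, Anxa2, Bhmt, Bmp4, Ccdc85b, Cdkn1c, Cldn3, Ctgf, Dsp, Elf3, Fst, Gal3st3, Hist1h2ap, Jun, Jund, Lgals7, Mdm4, Mogat2, Nefl, Ovol2, Plk3, Prss8, Ptms, Sycp3, Tuba3a and Zfp36, among others, overlap a gene on the other strand and Sox2 lies inside Sox2ot on its own strand. The strand setting of the counting was not given in the sources used here, so reads of such partners cannot be told apart. No cell type that lacks these genes was present from which to estimate free RNA.

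The same split within the DMSO library gave 191 high-score and 191 low-score cells, with median UMIs of 41073 and 45078. There 222 of 8910 measured genes (2.49%) were higher and 24 (0.269%) lower, 246 (2.76%) in all. Over the 8519 genes measured in both libraries, 49 were higher in both, which is 37.4% of the 131 higher in Idoxuridine and 22.7% of the 216 higher in DMSO cells. The genes higher in Idoxuridine cells had a median of 0.39 log2 in DMSO cells, where 114 of 131 were above 0, against 57.0% of all genes. For the genes lower in Idoxuridine cells the DMSO median was 0.01, 29 of 56 were above 0, and 3 were lower in both, namely Bmp4, Hist1h2ap and Hist1h1a. The difference between the libraries was not tested.

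Simple-epithelium genes were on the higher side in both libraries. In DMSO cells 10 of 21 measured members were higher and none lower, against 2.49% and 0.269% of all measured genes there, with a median of 0.55 log2. Cldn7 stood at 18.2 CPM in high-score and 4.51 CPM in low-score DMSO cells (2.01 log2) and Cldn3 at 9.98 and 3.61 CPM (1.47 log2). Anxa2 (1.42 log2), Elf3 (0.50), Ovol2 (0.78), Crb3 (0.97), Cldn6 (1.50), Peg10 (0.93), Sgce (1.00), Jun (1.31) and Ctgf (1.11) were also higher there. Perp, a p53 target found at desmosomes, was the gene with the highest DMSO ratio, at 32.9 and 7.42 CPM (2.15 log2), but stood at 76.7 and 70.2 CPM (0.13 log2) in Idoxuridine cells. Cyr61, a relative of Ctgf, was likewise higher in DMSO cells (1.68 log2) and neither in Idoxuridine cells (0.19 log2).

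Other genes passed the rule in Idoxuridine cells and were scarce or level in DMSO cells. Lgals7 stood at 0.897 and 0.501 CPM, Gata2 at 1.79 and 1.00 CPM, Esx1 at 2.13 and 1.10 CPM and Dppa3 at 5.16 and 4.01 CPM in high-score and low-score DMSO cells, all below the minimum count. Dazl stood at 7.07 and 6.31 CPM (0.16 log2). Car2 had 97.9 and 90.9 CPM (0.11 log2). Sox2 stood at 288 and 365 CPM (−0.34 log2), which was in the same direction but did not pass the rule.

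**Figure D5:**
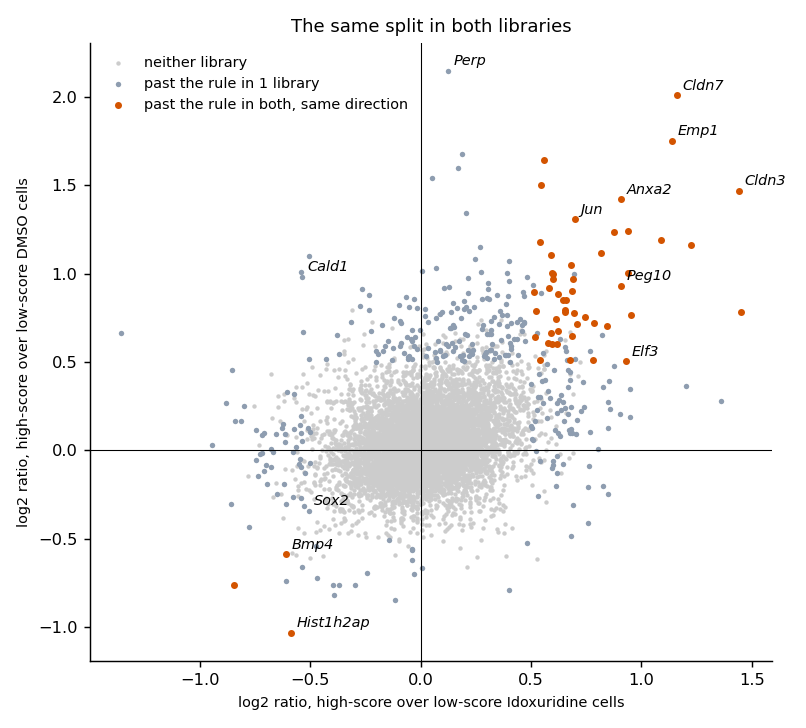
Log2 ratio of high-score over low-score cells in the Idoxuridine library (x axis) and in the DMSO library (y axis), 1 point per gene measured in both. The 49 genes higher in both, with Cldn3, Cldn7, Emp1 and Anxa2 among them, lie at the upper right, 3 lower in both lie at the lower left, and Perp lies near 0 on the x axis.

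The genes most alike to the score over single cells included claudins, a galectin and Elf3. Over 648 Idoxuridine cells and 7967 genes, the highest Pearson's r with the summed score genes belonged to Hspa5 (0.27), Jund (0.26), Lgals7 (0.26), Bhmt (0.24), Cldn3 (0.24), Ptms (0.23), Elf3 (0.23) and Cldn7 (0.23). The median over all genes was 0.01 and 90% lay between −0.09 and 0.10. Hspa5, the chaperone BiP of the endoplasmic reticulum, stood at 690 and 493 CPM, just under the 0.5 log2 limit, and Jund, an AP-1 subunit, at 349 and 258 CPM. In DMSO cells Cldn7 had an r of 0.30, Jund 0.24 and Elf3 0.16, while Hspa5 had 0.08. All these values share the library and its depth.

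Many calls depended on Epcam being part of the score. With the score built from the other 5 genes, 187 genes were higher and 39 lower, and these held 83 of the 202 higher and 10 of the 62 lower genes. Of the genes picked for naming as described below, 34 of 57 higher and 2 of 21 lower ones still passed. Genes picked only for the share of 1 cell, and further examples such as Crb3, were not in this count. Cldn3 (1.28), Cldn7 (1.05), Dsp (0.98), Elf3 (0.77), Anxa2 (0.99), Gata2 (0.77), Esx1 (1.34), Cdkn1c (0.98), Lgals7 (0.96) and Lgals1 (0.74) remained higher. The simple-epithelium list then had 8 of 23 higher and the galectin, annexin and S100 list 10 of 17, against 187 of all 8894 genes measured there. Of the genes with the highest ratios, Fbp2 (0.80) and Mogat2 (0.66) no longer passed, and Khdc1c was still higher at 1.81. Prss8 (0.27), Bambi (0.23), Ovol2 (0.35), Cdx2 (0.32), T (0.44), Dazl (0.20) and Myc (0.57) did not pass either, and Car2 (−0.15), Nefl (−0.20) and the follistatin gene Fst (−0.25) changed sign. Among the lower genes, Sox2 (−0.38), Bmp4 (−0.38), Mdm4 (−0.23) and Hist1h2ap (−0.15) kept their direction without passing. Only Ccdc85b (−1.19) and Rasl11b (−0.95) of those 21 lower genes still passed.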

How the data were processed

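Single-cell RNA was measured in 2 libraries of E14 cells, 1 per treatment, made with 10x Genomics 3′ V2 chemistry per the labels. The deposited values are counts: whole UMI counts per gene and cell for 27998 genes, not normalized. The tools and build, per the submitters' processing notes, were Cell Ranger 2, Seurat and mm10; the annotation, the strand setting and the choice of barcodes are not given in the sources used here. Every barcode was kept as a cell and no doublet caller was run. Of the gene identifiers, 27722 (99.0%) were found in GENCODE M21 on GRCm38, from which coordinates come.

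UMIs were summed over the cells of a side and scaled to CPM, with exact Poisson intervals for levels and exact conditional binomial intervals for ratios (Python 3.11.15, scipy 1.17.1), at the 95% level. A side at 0 was set to a floor of 3 counts. With 1 library per treatment no test was made. The comparison was run on simulated Poisson sums with known changes. That simulation held no spread between cells beyond counting error, so it cannot show how the calls behave under such spread. Per-cell values were scaled to the minimum depth, a setting taken from the definition of the sides; the shallowest Idoxuridine cell kept had 23504 UMIs. Alternatives included TMM scaling in edgeR 4.0.16.

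Named were the 6 score genes, the 12 highest and 12 lowest ratios, the 8 largest gains and 8 largest losses in CPM, up to 4 members past the rule of each of 33 lists, the 5 highest and 5 lowest DMSO ratios, the 8 genes most alike to the score, and genes with over 20% of a side's UMIs in 1 cell. Some genes that this rule names are not reported here. Further list members are named as examples, chosen after their values were seen. The score genes, the sides and the lists were chosen with earlier results of these data known. Of 755 list entries, 9 were not found.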

Additional observations from a re-analysis of the deposited data

Results flagged for a closer look

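Cald1, the gene of the actin-binding protein caldesmon, was the 1 gene that passed the rule in opposite directions in the 2 libraries. In Idoxuridine cells it was at 26.0 CPM (22.4 to 30.1) in high-score and at 37.7 CPM (33.3 to 42.6) in low-score cells, with a log2 difference of −0.54. In DMSO cells it was at 39.8 CPM (35.8 to 44.2) in high-score and at 20.1 CPM (17.5 to 23.1) in low-score cells, with a log2 difference of 0.98. Each value comes from 1 library and the difference between the libraries was not tested.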

How the results depend on the processing

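No paired analysis was possible because each treatment has 1 library, and for the same reason no replicate could be left out. Of 88 counts of higher or lower genes over the alternatives, 73 stayed within 1.5 times the main count. A minimum of 400 UMIs per gene left 51 higher and 12 lower genes in Idoxuridine cells (202 and 62 in the main comparison) and 65 and 9 in DMSO cells (222 and 24). A limit of 1 log2 left 34 and 1 in each library. Splitting the cells at the median score gave 27 lower genes in Idoxuridine cells and 120 higher and 6 lower in DMSO cells. Without Epcam in the score, 39 genes were lower in Idoxuridine cells, and without Cldn4 143 were higher in DMSO cells. Ranking cells by the mean rank of the 6 genes gave 119 higher genes in DMSO cells, and median-of-ratios scaling gave 43 lower ones. That scaling moved the share of higher genes among DMSO calls from 90.2% to 78.4%; in Idoxuridine cells the lowest share under a scaling was 69.1% (TMM) against 76.5%. A similar count can hold other genes: of the 202 higher genes, 67 were shared with the 229 found in the top and bottom 10% of cells, 117 with the 199 found by mean rank and 163 with the 180 found when cells were ranked within each of 3 groups of equal size by G2/M share. Of 78 genes past the rule that were picked for naming, 74 kept their sign in all 20 alternatives. Genes picked only for the share of 1 cell were not among the 78. The exceptions were Car2 (−0.15), Nefl (−0.20) and Fst (−0.25) without Epcam, and, in the top and bottom 10% of cells, Fst (−0.040) and Phkg1 (0.52). Depth limits the genes near the minimum: at 100 UMIs over both sides, separate intervals need a large ratio.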
